A study of Homo sapiens and Mus musculus with 12 samples.

Results

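The SPI1 promoter peaks of THP1 cells were the 247 regions, of 1846 in the SPI1 peak list, with a summit no farther than 1000 bp from where a protein-coding transcript begins in GENCODE release 44 (GRCh38). They made up 13.4% of the list (95% Wilson interval, 11.9 to 15.01). The other SPI1 peaks were 753 intronic, 38 exonic and 808 intergenic regions. The whole series held 12513 peaks in 5 lists. THP1 is a human monocytic leukemia line and was profiled here unedited by chromatin immunoprecipitation and sequencing (ChIP-seq) with an antibody against SPI1 and, separately, against GFI1, a zinc-finger repressor. K562, a human erythroleukemia line that expresses Cas9 in this study, was profiled with a non-targeting guide RNA (sg-NT) for LSD1 and GFI1, and with a guide against the histone demethylase LSD1 (sg-LSD1) for GFI1. Each antibody had 1 library per line and guide, from chromatin fixed with disuccinimidyl glutarate and formaldehyde. The 3 human input libraries and 4 mouse libraries were not analysed here.

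With 1 library per group there was no replicate and no test of a difference. The 95% Wilson interval beside a share reflects counting error alone, and other values have quartiles or ranges over peaks. Peaks are not replicates of a condition. The lists hold no expression values, so the monocytic identity of the cells could not be checked against marker RNA. None of 8 monocytic marker genes (among them CD14, CD68, ITGAM and LYZ) had an SPI1 promoter peak. CSF1R, the receptor for macrophage colony-stimulating factor, had 2 SPI1 peaks within 10000 bp of the gene, neither at a promoter. The other monocytic marker genes had no listed SPI1 peak within that distance. The paper reports SPI1 at the ITGAM locus in THP1 cells, and the reason for the difference was not tested. None of 7 erythroid, 4 T cell and 4 B cell marker genes had an SPI1 promoter peak either. The intervals of these zeros reached 32.4% for the monocytic, 35.4% for the erythroid and 49.0% for the T cell and the B cell genes. The share over all protein-coding genes, 1.32%, lies within each of them, so the zeros do not set these markers apart from other genes. The erythroid factor gene KLF1 had 1 SPI1 peak within 10000 bp, which was the promoter peak of the neighbouring DNASE2 (fold 5.83).

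SPI1, also named PU.1, is a transcription factor of the ETS family that is required for the development of macrophages, granulocytes and B cells. Its ETS domain contacts the bases GGAA, and a purine-rich stretch before them sets SPI1 apart from most other ETS factors. Many myeloid promoters lack a TATA box and carry an SPI1 site close to the start of transcription, while SPI1 also occupies a large number of distal enhancers.

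The DNA under some of these peaks is printed first, because the letters at the summit differ among them. The genes were chosen with their sequence known, and the strongest peak, that of NFYC, is not among them. Each run is GRCh38 sequence, 5′ to 3′, read from the strand named. Capitals mark the SPI1 core GAGGAAGT where the 50 bp window around the summit held it on either strand. The signalling and oxidase genes INPP5D (chr2:233060268-233060297, plus strand), NCF1 (chr7:74773944-74773991, minus strand) and DOCK8 (chr9:272846-272893, minus strand) held the core, as did TLR4 (chr9:117704291-117704320, minus strand), the PSMB8 and PSMB9 interval (chr6:32844023-32844052, plus strand) and SMAP2 (chr1:40344745-40344792, plus strand). The runs at INPP5D and TLR4 lie in an annotated 5′ UTR of at least 1 transcript, and 25 bases of the PSMB8 run lie in an annotated UTR. These runs were kept to 30 bases.
INPP5D: gtttctgtaatGAGGAAGTtctccgcagct
NCF1: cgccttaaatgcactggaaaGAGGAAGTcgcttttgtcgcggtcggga
DOCK8: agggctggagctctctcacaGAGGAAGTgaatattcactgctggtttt
TLR4: ctaaagggtgaGAGGAAGTgaaagcggcaa
PSMB8: cgctctcggagGAGGAAGTgaaagcgaaag
SMAP2: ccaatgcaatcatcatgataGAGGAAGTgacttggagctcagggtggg

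A second set shows summit windows without that core, in which capitals mark every GGAA on the strand printed. They belong to USF1 (chr1:161044962-161045011, plus strand), LAMP1 (chr13:113296964-113297013, minus strand), NLRP3 (chr1:247418004-247418053, plus strand), PIK3CD (chr1:9629826-9629875, minus strand), IRF5 (chr7:128940635-128940684, plus strand) and CYBA (chr16:88650714-88650763, plus strand).
USF1: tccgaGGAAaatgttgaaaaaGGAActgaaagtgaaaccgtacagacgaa
LAMP1: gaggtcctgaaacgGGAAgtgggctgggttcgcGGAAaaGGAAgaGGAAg
NLRP3: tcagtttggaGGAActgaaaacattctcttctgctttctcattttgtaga
PIK3CD: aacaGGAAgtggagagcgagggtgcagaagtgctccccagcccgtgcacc
IRF5: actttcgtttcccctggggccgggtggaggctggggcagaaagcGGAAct
CYBA: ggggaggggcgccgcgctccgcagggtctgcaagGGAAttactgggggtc

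The core GAGGAAGT was found in 56 of the 247 windows, or 22.7% (17.9 to 28.3). Over all SPI1 peaks of the list the share was 26.4%, and over the 1599 peaks away from promoters it was 27.0% (24.9 to 29.2), so the intervals overlapped. In windows placed 2000 bp to either side of the promoter summits the core occurred once in 494, a share of 0.202% (0.0357 to 1.14). Windows tiled over 500 bp on each side of the canonical start of each protein-coding gene held it in 0.274%. The shorter GAGGAA, which every core contains, was present in 36.8% of the promoter windows (31.1 to 43.02) and in 43.9% of those away from promoters (41.5 to 46.3), against 3.85% at 2000 bp and 4.83% over all promoters. The minimal GGAA occurred in 84.2% of promoter windows and in 85.2% of the others, but also in 39.97% of tiled promoter windows. Among the 191 promoter peaks without the core, 152 held a GGAA.

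The core lay close to the point of highest coverage. Its midpoint was a median 6.5 bp from the summit, and it was within 10 bp at 37 of the 56 peaks. It read along the strand of the gene at 27 and against it at the rest. The core began upstream of the start at 33, as in INPP5D, where it spanned 63 to 56 bp upstream of the canonical start (values of −63 and −56), and in NCF4, where it spanned −74 to −67.

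The bases in front of the core differed by location. In the 56 promoter cores the third base before GAGGAAGT was an A in 55.4% (42.4 to 67.6) and a G in 35.7% (24.5 to 48.8). In the 440 cores away from promoters the same base was an A in 74.8% (70.5 to 78.6) and a G in 9.55% (7.14 to 12.7). The next base was an A in 55.4% of promoter cores and in 76.8% of the others (72.7 to 80.5). These intervals did not overlap between the locations. At the base directly before the core, an A was found in 60.7% (47.6 to 72.4) and 66.8% (62.3 to 71.1), and the intervals overlapped. Among the 1239 copies of the core in all tiled promoters, bound or not, an A stood at the third base before it in 22.6% (20.4 to 25.01). The interval for bound promoter cores thus lay above that of promoter cores at large and below that of bound cores elsewhere.

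The octamers around GGAA were otherwise alike with a few departures. GGGGAAGT occurred in 9.31% of the promoter windows and in 9.32% of the others. GAGGAACT was found in 5 promoter windows (2.02%) and in 5.07% of the windows away from promoters. GCGGAAGT, with a CpG, was found in 7 promoter windows (2.83%) and in 0.563% of the others. For GAGGAACT and GCGGAAGT no interval and no share of tiled promoter windows were computed. Their promoter counts are small, so these differences are descriptions. CCGGAAGT, the preferred form of the ETS1 and GABPA class, stood in a single promoter window (0.405%), in none of the 1599 others and in 0.378% of tiled promoter windows. Any octamer that ends in GGAAGT was present in 50.6% of promoter windows and 52.3% of the remaining SPI1 windows, against 2.23% at 2000 bp.

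Motifs of other factors were searched on both strands of the same windows. The composite GGAANNGAA, to which SPI1 and IRF4 or IRF8 can bind jointly, was found in 12.96% of promoter windows (9.33 to 17.7), in 12.6% of the others and in 1.021% of tiled promoter windows. In 10 of the 32 promoter windows with it, its GGAA was that of the core. The GC box GGGCGG, a site of SP1, was found in 8.10% of promoter windows (5.30 to 12.2), in 1.13% of SPI1 windows away from promoters and in 12.96% of tiled promoter windows. The CCAAT box occurred in 4.45% of promoter windows and 5.38% of tiled windows, the TATA box (letters TATAAA) in 2.02% and 1.46%, the E-box (letters CACGTG) in 1.62% and 0.963%, and the AP-1 site (letters TGANTCA) in 0.405% and 0.753%. AATCAC, the core of GFI1 sites, was found in 2 promoter windows (0.810%, 0.222 to 2.90), in 1.75% of SPI1 windows away from promoters and in 1.31% of tiled promoter windows.

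**Figure D1:**
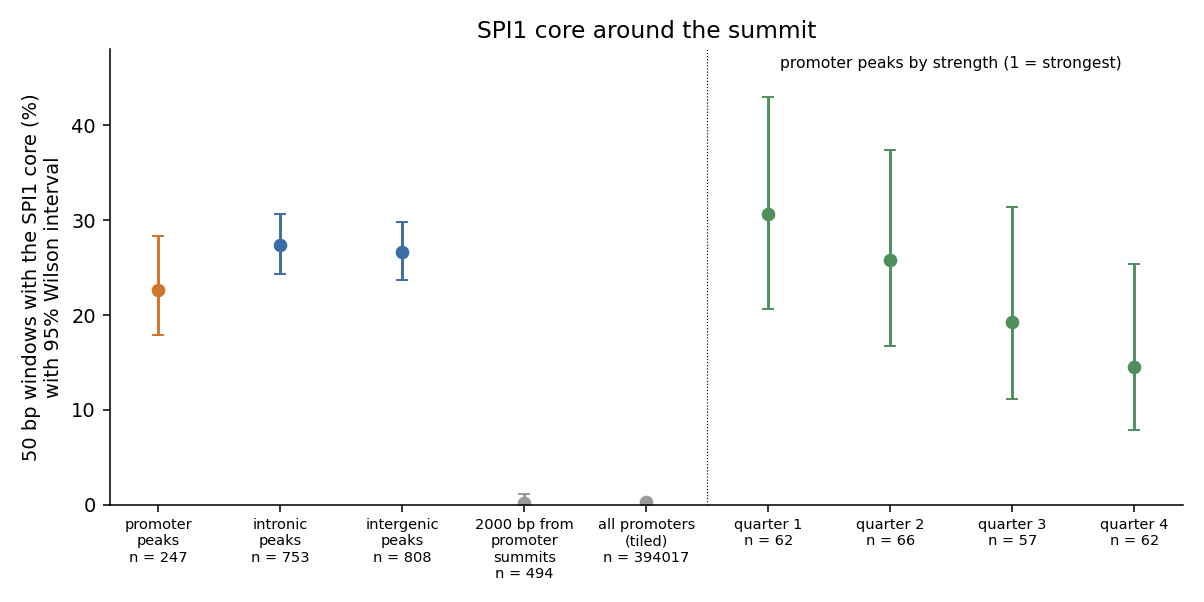
Percent of 50 bp windows that held GAGGAAGT on either strand (points) with 95% Wilson intervals (bars), for SPI1 peaks by location, for 2 kinds of comparison windows, and for promoter peaks in 4 groups by −log10 p. The 3 locations lie between 22.7% and 27.4% with overlapping intervals, both kinds of comparison windows lie under 1%, and the share falls from 30.6% in the strongest to 14.5% in the weakest group.

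The share with the core was 30.6% among the 62 strongest promoter peaks (20.6 to 42.97), then 25.8% and 19.3%, and 14.5% among the 62 weakest (7.83 to 25.3). The intervals of the first and last group overlapped. By distance, the core was present at 23.7% of peaks within 100 bp of a start, 22.4% of those farther away but within 300 bp, and 21.9% of the rest. The median fold enrichment was 9.03 with the core and 8.08 without it.

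The summits gathered at the start of transcription. The median summit lay 38 bp upstream of the nearest start (−38, quartiles −284 and 103.5), and 155 of the 247 summits (62.8%) were upstream. Within 100 bp of a start lay 93 summits (37.7%, 31.8 to 43.8), of which 63 were in the 100 bp before it. In the other lists the share of promoter summits within 100 bp was 23.0% for GFI1 in THP1 (20.4 to 25.9) and 20.7% for LSD1 in sg-NT K562 cells (18.8 to 22.7), and neither interval reached that of SPI1. In the GFI1 lists of K562 cells, which held few promoter peaks, it was 18.3% of 60 with sg-NT (10.6 to 29.9) and 23.5% of 17 with sg-LSD1 (9.56 to 47.3), and the last of these intervals overlapped that of SPI1. By annotation of the nearest transcript, 155 summits were upstream of it, 34 in its 5′ UTR, 3 in a coding exon, 53 in intron 1 and 1 in a later intron. The summit near the histone gene H3C15 lay past the end of its short transcript. An Ensembl canonical start was within 1000 bp for 171 of the peaks (69.2%), and was the nearest start for 86 of them.

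At the edge of the definition, the peaks just inside were those of TET3 at 994 bp (fold 9.26) and APOBEC2 at 994 bp (fold 11.8). Just outside were peaks near SLC43A2 at 1003 bp (fold 8.17) and RAB11FIP1 at 1021 bp (fold 19.2).

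The DNA at these peaks was GC-rich relative to the rest of the list, as promoters are. Over 300 bp around the summit the median GC content was 58.0% (quartiles 49.2 and 64.0), against 46.7% at intronic and 45.0% at intergenic SPI1 peaks. Around their starts, the median was 63.0%, against 66.0% over the canonical starts of 19700 protein-coding genes, 1 per gene. The kinds of start differ, since the nearest start was canonical for only 86 of the 247 peaks. At the canonical starts of the 182 genes that had one within 1000 bp of a promoter summit, the median was 65.5%. CpG dinucleotides were under 0.6 of the number expected from base composition at 114 of the 247 starts (46.2%, 40.04 to 52.4), and at 30.8% of all canonical starts (30.1 to 31.4). Compared like for like, the 182 canonical starts near promoter summits were CpG-poor at 55 (30.2%, 24.01 to 37.2), an interval that includes the share over all genes. CTSS (0.0866), PHF20 (0.118), LST1 (0.141) and NCF4 (0.183) were among the starts with few CpGs, and LAMP1 (1.22) had the most. The core was present at 21.1% of peaks at CpG-poor starts and 24.1% of those at CpG-rich starts.

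Peak strength resembled that of the other SPI1 peaks. The deposited fold enrichment over local background had a median of 8.32 (quartiles 6.41 and 10.6, range 4.25 to 23.5) at promoters, 8.76 at introns and 8.61 between genes. The median −log10 p was 13.6, 14.97 and 14.8 in the same order. The highest folds of the list were elsewhere, since intronic peaks reached 43.4 and intergenic peaks 94.7. Fold and p together fix the number of fragments over a summit and the local background. That number had a median of 13 at promoters (quartiles 10 and 17, range 5 to 112), and also of 13 at intronic and at intergenic peaks. Most calls thus rested on few fragments.

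**Figure D2:**
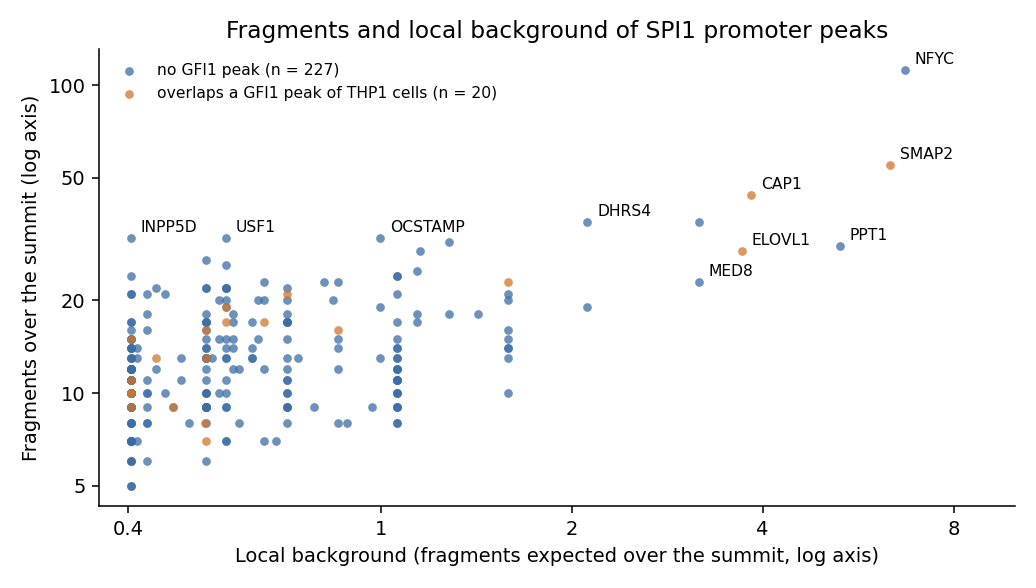
Fragments over the summit against the number expected from local background (both log axes) for the 247 SPI1 promoter peaks, in orange where a GFI1 peak of THP1 cells overlapped. Backgrounds run from 0.404, shared by 67 peaks, to 6.70 at NFYC, and the fragments from 5 to 112.

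By −log10 p, the strongest promoter peak was that of NFYC, a subunit of the CCAAT-binding factor NF-Y, with 112 fragments against a background of 6.70 (fold 14.7, −log10 p of 93.9, summit 1 bp after the start). Its window held GGAA 3 times but neither GAGGAAGT nor GAGGAA. The background at NFYC was among the highest, and so were those at SMAP2 (6.36), PPT1 (5.30) and CAP1 (3.84). All 4 lie on chromosome 1 between 40 and 41 Mb, where 21 SPI1 peaks had a median background of 4.77 and 34 GFI1 peaks one of 5.62, against 0.530 over all SPI1 peaks and 0.6001 over all GFI1 peaks. The GFI1 peak at SMAP2 had a p too small to solve and was left out of these medians. The part of this background in their rank was not tested. The other promoter peaks with a background over 2 were those of ELOVL1, MED8, DHRS4, CCL4L2 and LILRA2, which made 9 in all. CCL4L2 and LILRA2 have close copies, so fragments there may be shared.

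The next strongest peak belonged to INPP5D, which encodes the inositol phosphatase SHIP1 of blood cells. It had the highest fold of the promoter peaks (23.5), with 32 fragments against the lowest background of 0.404, and its summit was 58 bp before the canonical start. USF1, an E-box-binding factor, followed with a fold of 21.0, and then NCF4 with 18.3. The peak at OCSTAMP, a membrane protein needed for osteoclast fusion, had a fold of 16.5, with 32 fragments and a core 29 bp after the start. The peak of the zinc transporter gene SLC39A13 (fold 17.8) was centred 29563 bp upstream of the SPI1 gene itself, and no SPI1 peak summit lay inside the SPI1 gene.

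The remaining peaks among the 10 strongest lay at RGS19 (fold 17.2), a regulator of G protein signalling, SMAP2 (7.61), an Arf GTPase-activating protein, DENND4B (14.02) and DHRS4 (11.9), an NADP-dependent dehydrogenase. At the other end of the ranking, UTRN and TPM1 had 5 fragments each (fold 4.27, −log10 p of 5.37) and GPSM3 had 8 against a background of 1.06 (fold 4.37).

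By gene, 261 of 19702 protein-coding genes had an SPI1 promoter peak, a background share of 1.32%. The lists below were compiled with earlier results of these data known, so their counts are descriptions. Of 4 genes for the phagocyte NADPH oxidase, the enzyme that makes superoxide, 3 had one (75%, 30.1 to 95.4), and CYBB, its heme-bearing chain, had none. The peak at NCF4 (p40phox) had 27 fragments and a fold of 18.3. At NCF1 (p47phox) it had 25 fragments and a fold of 12.1. At CYBA (p22phox) it had 7 fragments and a fold of 5.70, and its summit was 276 bp inside the gene. The windows of NCF4 and NCF1 held the core and that of CYBA did not. CYBC1, a chaperone of the oxidase that was not in the list and was picked after its value was seen, had a peak of fold 10.7. NCF1 has near-identical pseudogene copies, so its fragments may be shared with them.

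Among 57 receptors and surface proteins of phagocytes, 7 had a promoter peak (12.3%, 6.08 to 23.2). They were ITGB2, the β2 integrin chain (fold 9.81), FCER1G, the γ chain of Fc receptors (9.16), FCGR2B, the inhibitory IgG receptor (8.74), CD300A (6.80) and CD37 (6.54), along with the chemokine receptor CCR1 (5.60) and CD300LF (5.34). The folds were low, with a median of 6.80 against 8.32 over all promoter peaks. None of the 7 windows held the core, against 22.7% of all promoter windows, and 7 windows are too few to set this count apart from that share. The shorter GAGGAA was in the windows of ITGB2, FCER1G, CCR1 and CD300LF and not in those of FCGR2B, CD300A and CD37. FCGR2B has close relatives at its locus, so its assignment is uncertain.

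Leukocyte signalling and cytoskeleton genes had a peak in 7 of 62 cases (11.3%, 5.58 to 21.5), with a median fold of 12.1. After INPP5D came SYK, the kinase downstream of Fc receptors and integrins (fold 12.4, summit 11 bp before the start), and PIK3CD, the leukocyte catalytic subunit of phosphoinositide 3-kinase, and DOCK8, an exchange factor for CDC42, both at 12.1 with 24 fragments. NCKAP1L, the WAVE complex subunit of blood cells, had a fold of 10.7. PIK3R5, a regulatory subunit of phosphoinositide 3-kinase, had 8.92, and ARHGDIB had 5.88. An Ensembl canonical start was within reach for 5 of the 7 genes, and not for PIK3CD or DOCK8. DOCK8, NCKAP1L and PIK3R5 held the core, as did INPP5D, where 22.7% of all promoter windows did. The windows are few and the list was compiled with earlier results known, so this is a description only.

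Of 50 Toll-like receptor and inflammasome genes, 6 had one (12.0%, 5.62 to 23.8), in a range of 5.89 to 11.4. TLR4, the receptor for lipopolysaccharide, and its adaptor MYD88 (fold 9.26, 14 bp after the start) were both among them. The nearest start to the TLR4 peak was that of ENSG00000285082, a gene without a symbol, so the peak cannot be assigned to TLR4 alone. NLRP3, the inflammasome sensor, had a fold of 8.04, UNC93B1, which carries nucleic-acid-sensing Toll-like receptors to endosomes, 8.08, and NLRP12 7.28. NFKB1, the gene for the p50 subunit of NF-κB, had the weakest of these peaks with 8 fragments. An Ensembl canonical start was within reach for 5 of the 6 genes, and not for NLRP3. TLR4 was the only 1 of the 6 whose window held the core, against 22.7% of all promoter windows, and so few windows do not set the list apart.

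Lysosomal proteins were represented by 7 of 57 genes (12.3%, 6.08 to 23.2). LAMP1, an abundant lysosomal membrane protein, had a fold of 15.4 and CTSZ, a carboxypeptidase, 14.6. CTSS, the cysteine protease that trims the invariant chain, had 13.9, with 29 fragments and a core 26 bp before the start. The peaks of CTSB (7.55), CTSC (7.19), CLN3 (6.41) and PPT1 (4.92) were weaker, and that of PPT1 lay in the high-background stretch of chromosome 1. In this list the windows of CTSS and PPT1 held the core and the others did not, against 22.7% of all promoter windows. So few windows do not set the list apart. The peak counted for CLN3 was nearest the start of APOBR on the opposite strand, 84 bp before it, and cannot be assigned to either gene. An Ensembl canonical start was within reach for 5 of the 7 genes.

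Antigen presentation and the immunoproteasome had 2 of 31 genes (6.45%, 1.79 to 20.7). These were PSMB8 and PSMB9, which share a single peak of fold 10.5 with 17 fragments between their starts. For 1 of these 2 genes an Ensembl canonical start was within reach. In the transcription factor list, 5 of 72 had a peak (6.94%, 3.00 to 15.2). They were IRF5 (fold 15.7, 12 bp before a start), FLI1, itself an ETS factor (13.3), MITF (9.75), LMO2 (7.83) and MEF2C (5.34), and at 1 of the 5 an Ensembl canonical start was within reach. MITF alone of the 5 held the core, against 22.7% of all promoter windows, and so few windows do not set the list apart. No SPI1 promoter peak was found at any of 12 azurophil granule genes (0%, up to 24.2). The same held for 57 respiratory chain genes (up to 6.31) and 76 cytosolic ribosomal protein genes (up to 4.81). The background share of 1.32% lies within each of these intervals, so the zeros do not set these lists apart from other genes. Peaks farther from a start were not counted for these lists. The paper reports SPI1 at the PRTN3 promoter region in THP1 cells, where no promoter peak was listed here. The reason for that difference was not tested.

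At 16 promoter peaks more than 1 gene was within reach, and at 12 of them the genes ran on opposite strands. The strongest of these were RGS19 with OPRL1, the nociceptin receptor gene (fold 17.2), C1orf43 with UBAP2L (11.4), PSMB8 with PSMB9 (10.5), ZNF646 with ZNF668 (9.26) and SNRPD2 with QPCTL (9.26). The PSMB8 and SNRPD2 windows held the core and the other 3 did not. At such peaks a summit cannot be assigned to 1 of the genes.

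GFI1 was profiled in the same line in a separate library, so the overlap asks how often peaks of both lists coincided at a promoter. A GFI1 peak of THP1 cells overlapped 20 of the 247 SPI1 promoter peaks by at least 1 bp, or 8.10% (5.30 to 12.2), against 10.5% over all SPI1 peaks, 10.2% at introns and 11.5% between genes. The intervals overlapped. With summits at most 200 bp apart the share was 4.45% (2.505 to 7.80), against 8.88% away from promoters (7.58 to 10.4), and the intervals still overlapped. The shared peaks were 0.578% of the 3461 GFI1 peaks. The 2 summits were a median 131 bp apart (22 to 663). At the shared places the GFI1 fold had a median of 13.1 and the SPI1 fold one of 9.16. These folds come from separate libraries of unknown depth and cannot be compared directly. The core was in 3 of the 20 windows (15.0%, 5.24 to 36.0). The strongest were SMAP2, whose GFI1 peak had a fold of 35.9, CAP1, an actin-binding protein (SPI1 fold 9.31, GFI1 fold 8.27), HNRNPC, a binder of nascent transcripts (SPI1 fold 12.8), OAZ1, the ornithine decarboxylase antizyme (12.7), and ST6GAL1, a sialyltransferase (11.5). SMAP2 and CAP1 lie in the high-background stretch described above for both antibodies.

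**Figure D3:**
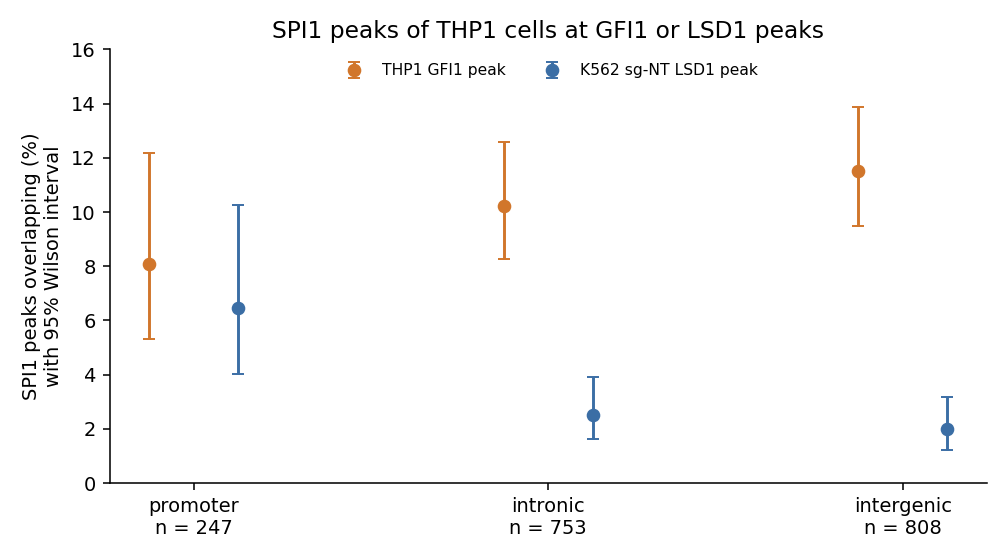
Percent of SPI1 peaks of THP1 cells that overlapped a GFI1 peak of THP1 cells (orange) or an LSD1 peak of sg-NT K562 cells (blue), by location, with 95% Wilson intervals. For GFI1 the 3 intervals overlap, and for LSD1 the promoter share of 6.48% has an interval of 4.03 to 10.3, above the shares at introns (2.52%) and between genes (1.98%).

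LSD1 was profiled in the other line, so its overlap sets SPI1 peaks of monocytic cells against LSD1 peaks of erythroid cells. An LSD1 peak of sg-NT K562 cells overlapped 16 SPI1 promoter peaks (6.48%, 4.03 to 10.3), and 2.19% of the SPI1 peaks away from promoters (1.58 to 3.03). These intervals did not overlap, and the share over all SPI1 peaks was 2.76%. The separation depended on how overlap was defined. With at least 50% of the shorter peak covered the shares were 2.43% (1.12 to 5.20) and 1.31% (0.861 to 2.00), and with summits at most 200 bp apart they were 3.24% (1.65 to 6.26) and 1.25% (0.811 to 1.92). In both of these alternatives the intervals overlapped. The intervals stayed apart with peaks up to 500 bp from each other counted, at 10.1% (6.95 to 14.5) and 2.69% (2.00 to 3.60). They were also apart with a −log10 p limit of 8 on SPI1 and LSD1 peaks. The shares were then 5.19% (2.92 to 9.05) and 1.87% (1.29 to 2.71). LSD1 summits themselves were at promoters in 25.2% of the LSD1 list, against 13.4% of the SPI1 list, and the part of this in the overlap was not tested. The shared LSD1 peaks were 0.244% of 6548, with summits a median 203 bp apart. The strongest were at a gene without a symbol (ENSG00000290183, SPI1 fold 13.5), PIK3CD (12.1), RAD52, a recombination protein (12.8), NCKAP1L (10.7) and TMEM243 (11.4). The core was in 5 of the 16 windows.

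GFI1 and LSD1 peaks both overlapped SPI1 at 5 promoter peaks. GFI1 peaks of sg-NT K562 cells overlapped 2 of these, at TMEM243 and at IBA57, a gene of iron-sulfur cluster assembly, named for being the only promoter where the GFI1 list of sg-LSD1 cells overlapped as well. The IBA57 summit was 966 bp before the start, with 23 fragments (fold 9.27).

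Counted by gene and not by overlap, 34 of the 261 genes with an SPI1 promoter peak (13.03%, 9.47 to 17.7) also had a GFI1 promoter peak in THP1, against 4.76% of all protein-coding genes. An LSD1 promoter peak in sg-NT K562 cells was present at 40 of them (15.3%, 11.5 to 20.2), against 8.62%. Peaks in these counts need not overlap.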

How the data were processed

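SPI1, GFI1 and LSD1 ChIP-seq libraries of THP1 and K562 cells were used as 5 deposited peak lists. Per the submitters' notes and methods, reads were trimmed (Trim Galore 0.6.1), aligned to GRCh38 (Bowtie2 2.5.4) and passed through Picard 3.1.0, and the authors ran MACS2 2.2.9.1 per library (p-value under 1e-05), then removed blacklisted regions. Use of the input as control is not given in the sources used here. The deposited columns hold fold enrichment at the summit (a ratio to local background), −log10 p-value and −log10 q-value, and an integer score, which no result uses. Library depths are unknown.

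Summits were assigned to the nearest start of a protein-coding transcript (GENCODE release 44, of genes with such a transcript). Fragments and local background were solved from fold and p with a MACS2 pseudocount of 1, and every peak gave a whole number (tolerance 0.001, tested on simulated peaks). Motifs were searched in 50 bp windows on both strands, GC content in 300 bp, and peaks sharing 1 bp or more counted as overlapping. Python 3.11.15, numpy 2.4.6, scipy 1.17.1 and pysam 0.24.0 were used.

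Members and gene lists were chosen with earlier results of these data known. Named genes were, by −log10 p, the 10 strongest peaks, the 5 strongest at GFI1, at LSD1 and at starts on both strands, up to 8 of each list, the 3 weakest, and 2 on each side of 1000 bp. Genes named for sequence or CpG content, local background or an overlap count were chosen after their values were seen. Alternatives covered start distance, transcript set, p and q limits, windows and overlap definition. Some items are not reported here, and the list of oxidase genes leaves out a member for that reason.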

Additional observations from a re-analysis of the deposited data

How the results depend on the processing

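Of 45 alternative values for 9 results, 33 stayed within the interval (or within 1.5 times the count) of the reported value and 12 moved. The promoter share of 13.4% was 9.86% with starts within 500 bp, 17.9% within 2000 bp, 9.26% with Ensembl canonical transcripts only and, in an alternative chosen after seeing the data, 16.3% (300 peaks) with any transcript of a protein-coding gene. Among peaks with −log10 p at 8 or above, the median fold was 8.90. The share with the SPI1 core was 31.2% in windows of 100 bp, 36.8% in windows of 200 bp and 36.8% for GAGGAA alone, against 35.1%, 39.3% and 43.9% away from promoters. The share at a GFI1 peak of THP1 cells was 4.45% with summits at most 200 bp apart, against 8.88% away from promoters. The share at an LSD1 peak was 2.43% with at least 50% of the shorter peak covered and 3.24% with summits at most 200 bp apart, against 1.31% and 1.25% away from promoters. The intervals for LSD1 then reached from 1.12 to 5.20 and from 1.65 to 6.26. Starts were CpG-poor at 46.2% of promoter peaks and, with canonical starts only, a comparison added after seeing the data, at 30.2%. Why these values moved was not tested beyond the change of definition itself.

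Leaving out peaks with a local background of 2 or more, also chosen after seeing the data, gave a median of 12 fragments and a fold of 8.36. No interval was listed more than once, so 1 row per interval gave identical values. Without a pseudocount no whole-number solution was found for any of the 247 peaks, so that alternative has no value. No paired analysis was possible because each human group is 1 library and the mouse libraries with shared replicate numbers were not analysed here. With a median of 13 fragments per summit, peaks under the calling threshold cannot be told apart from unbound promoters.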
